A study of Gallus gallus with 2 samples.

Results

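Cadherins and protocadherins were compared between hearts of chicken (Gallus gallus) embryos exposed to a nitric oxide (NO) donor and hearts of vehicle-treated embryos. The members are the genes whose symbol in the deposited tables begins with CDH and a digit or with PCDH. There were 29 of them among 16737 genes, 18 named CDH and 11 named PCDH. One of the 29, CDH1-A on chromosome 28, is listed by RefSeq as a synonym of FZR1, an activator of the anaphase-promoting complex. It is therefore not a cadherin, and its values are given apart. Pcdh19, spelled in lower case in the tables, falls outside the rule and is also given apart.

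Eggs of the breed named brown leg horn were incubated for 24 h at 37 °C and then received 20 µl of fluid through the air sac. The fluid was phosphate-buffered saline in the control group and spermine NONOate at 10 µM in the other, a compound that releases NO and leaves the polyamine spermine. Hearts were collected at 45 h, a time whose starting point is not clear from the labels, and 10 hearts of each group were pooled into 1 library each, the PBS library and the donor library. No allele or transgene is named for either group. With 1 pooled library per group there is no test, and no difference below has a replicate check. Neither group received spermine alone, so NO and spermine cannot be told apart.

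Cadherins are calcium-dependent adhesion proteins that hold cells of like kind together. Classical type I and type II cadherins bind catenins inside the cell, which tie the junction to actin. Which cadherin a cell carries marks its tissue. Epithelia carry CDH1, heart muscle and the neural tube carry CDH2, and endothelium carries CDH5. Protocadherins are a larger and looser group, best known from the nervous system, and most of them lack the catenin-binding tail. In the early embryo, epithelial sheets that fold into tissue often exchange one cadherin for another as they do so.

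Levels are FPKM, a count of fragments divided by transcript length in kilobases and scaled to the library's mapped fragments, so genes can be compared per length within a library. Each value has the authors' 95% interval, which covers estimation within 1 library only. Differences compare FPKM + 1 on a log2 scale, donor over PBS, and folds are on that same scale unless plain FPKM ratios are named. Adding 1 makes folds of weakly expressed genes too small. The fragments behind each value were read from the interval widths, so they are effective numbers and not counts of reads. They ran from 70 to 24853 among the 19 members whose mean of both libraries reached 1 FPKM.

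The make-up of the cadherin transcripts differed between the libraries. CDH3 was the most abundant cadherin of the PBS library and CDH2 of the donor library. The epithelial members CDH1, CDH3 and PCDH1 were 3.93-fold to 4.28-fold lower in the donor library. The endothelial cadherin CDH5 was 1.89-fold higher, CDH2 1.54-fold higher and the GPI-anchored CDH13 2.51-fold higher. The mesenchymal cadherin CDH11 was 1.54-fold lower, and protocadherins other than PCDH15 had negative differences, though that of PCDH12 turned positive under 3 other scalings. In pooled tissue, fewer cells of a type and less RNA per cell cannot be told apart.

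Of the 19 members past the filter, 4 (21.1%) were at least 2-fold lower, against 10.3% of all 10824 genes that passed it. Another 2 (10.5%) were at least 2-fold higher, against 3.65% of all genes. Below zero lay 14 of the 19, with a median log2 difference of −0.54, beside a median of −0.11 for all genes, of which 58.7% lay below zero. Without CDH1-A, 13 of 18 lay below zero, with a median of −0.50. Over all 29 members without the filter the counts were again 4 and 2, or 13.8% and 6.90%, beside 6.83% and 2.45% of 16737 genes. The deposited intervals of the libraries did not overlap for 17 of the 19, against 70.9% of all genes. The counts are small, and 3 of the 19, CDH4, CDH7 and PCDH10, were under 1 FPKM in the donor library and passed through their control level. Genes of the partner and marker lists below that were under 1 FPKM in the donor library passed in the same way. At the filter, CDH4 lay just inside with a mean of 1.15 FPKM, and CDH8 just outside with 0.978 FPKM.

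Scaling between the libraries moves these counts. A trimmed mean scaling raised the median of all genes from −0.11 to 0.06. It also changed the split of all genes from 395 higher and 1115 lower to 571 higher and 844 lower. Among members it gave 3 higher and 4 lower, because CDH5 then passed the threshold. Ratios between 2 cadherins of the same library do not depend on this scaling, and they are given where they matter.

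**Figure D1:**
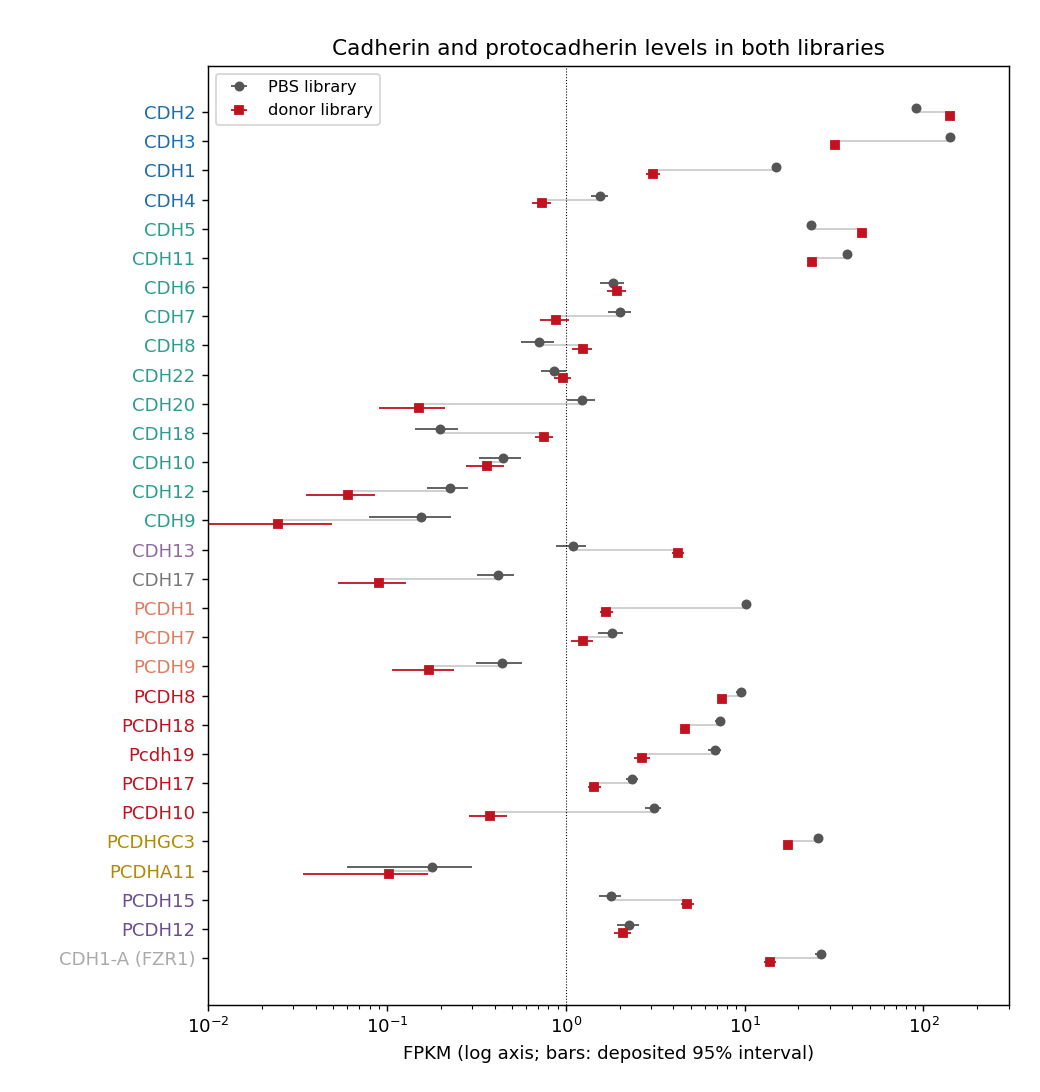
FPKM of the 29 members and Pcdh19 in the PBS library (grey circles) and the donor library (red squares) on a log axis, with the deposited 95% intervals as bars. Names are coloured by subclass and the dotted line marks 1 FPKM. CDH3 stands at 140.2 FPKM in the PBS library and 31.9 in the donor library, while CDH2 stands at 91.0 and 141.

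The type I cadherins were the most abundant subclass and split in direction. CDH3, an epithelial cadherin also known in chicken as K-CAM (ENSGALG00000026291, chromosome 11, 18310977 to 18316940 in galGal4), was at 140.2 FPKM (137 to 143) in the PBS library. In the donor library it was at 31.9 FPKM (30.9 to 33.02). This placed it 432nd among the 10824 genes of the PBS library and 1987th in the donor library. The log2 difference was −2.10 (−2.16 to −2.04), and this interval overlaps that of PCDH1. The order of the members with the most negative values depends on the pseudocount. With 0.1 FPKM, CDH3 was at −2.13, above CDH1 (−2.25), PCDH1 (−2.52) and PCDH10 (−2.74).

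CDH1, the main cadherin of epithelia (ENSGALG00000000608, chromosome 11, 18317572 to 18326276), was at 15.1 FPKM (14.2 to 15.9) in the PBS library and 3.09 FPKM (2.81 to 3.37) in the donor library. Its log2 difference was −1.97 (−2.10 to −1.85). CDH3 and CDH1 are direct neighbours, with 631 bases and 0 other annotated genes between them. CDH3 exceeded CDH1 by 9.30 times (8.77 to 9.86) in the PBS library and by 10.3 times (9.41 to 11.3) in the donor library. These intervals overlap, so the proportion of the pair was alike within estimation error while both levels were about 4-fold lower.

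CDH2, N-cadherin, is the cadherin of heart muscle junctions and of the neural tube (ENSGALG00000015132, chromosome 2, 104449184 to 104562821). It was at 91.0 FPKM (89.2 to 92.7) in the PBS library and 141 FPKM (139 to 143) in the donor library, a log2 difference of 0.62 (0.59 to 0.66). It moved from 686th to 434th among all genes kept. CDH4, a cadherin of retina and brain, was low in both libraries, at 1.56 FPKM (1.39 to 1.73) and 0.738 FPKM (0.646 to 0.830). Its log2 difference was −0.56 (−0.68 to −0.43).

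The order of CDH2 and CDH3 was therefore opposite in the libraries. The ratio of CDH2 to CDH3 was 0.649 (0.630 to 0.668) in the PBS library and 4.41 (4.25 to 4.56) in the donor library, a 6.79-fold difference that no library scaling alters. CDH3 made up 36.6% of the FPKM summed over the 28 cadherin genes in the PBS library and 10.7% in the donor library. CDH2 made up 23.8% and 47.2%. The sum itself was 383 FPKM in the PBS library and 298 FPKM in the donor library. Together CDH2, CDH3, CDH11 and CDH5 held 76.3% and 81.2% of it.

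**Figure D2:**
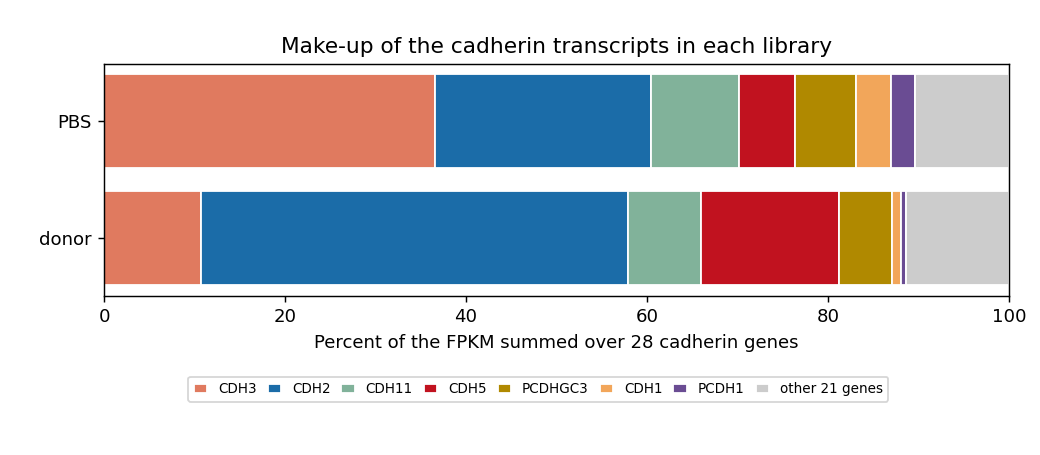
Share of the FPKM summed over the 28 cadherin genes (CDH1-A left out), in percent, for the PBS and donor libraries. CDH3 is the widest segment of the PBS bar at 36.6%, and CDH2 of the donor bar at 47.2%; CDH5 is 6.16% and 15.3%.

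Markers of the tissues that carry these cadherins also differed between the libraries. For each count in this paragraph, the shares of all genes past the filter were 3.65% higher and 10.3% lower by the same threshold. Of 6 heart muscle markers, 5 were at least 2-fold higher in the donor library. The FPKM summed over the list was 1694 in the PBS library and 10709 in the donor library. Of 5 surface ectoderm markers, 3 were at least 2-fold lower, with sums of 158 and 73.7 FPKM. Most of these sums was 1 gene, EPCAM, at 130 and 67.8 FPKM. Of 3 endoderm markers in the tables, 2 were at least 2-fold lower, with sums of 504 and 90.1 FPKM. Most of the PBS sum was 1 of them, TTR, at 400 FPKM in the PBS library and 44.2 FPKM in the donor library. The marker HHEX was at 42.7 and 40.8 FPKM, with intervals that overlapped. Both pools thus held heart muscle transcripts, and markers of other tissues were present in both as well. All 4 measured erythroid markers were at least 2-fold higher, with sums of 261 and 3399.5 FPKM. Of the 2 measured somite markers 2 were at least 2-fold lower, with sums over the list of 49.8 and 6.38 FPKM, and of the 2 measured nephric and intermediate mesoderm markers 1 was, with sums of 12.8 and 3.40 FPKM. None of these markers was listed at 0 in either library. LHX1 of the nephric list was at 0.134 FPKM (0 to 0.268) in the donor library, on 4 fragments, so its presence there is not shown. The part of these tissues in the cadherin differences was not tested.

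CDH2 did not keep step with the contractile markers. It is also carried by the neural tube, and the shares of heart muscle and neural tissue in its pooled value cannot be told apart. Its ratio to TNNT2, cardiac troponin T, was 0.151 (0.144 to 0.158) in the PBS library and 0.0441 (0.0423 to 0.0461) in the donor library. MYBPC3, cardiac myosin-binding protein C, was 9.02-fold higher, the ventricular regulatory light chain MYL2 8.10-fold, cardiac actin ACTC1 6.32-fold and TNNT2 5.27-fold, beside 1.54-fold for CDH2. NKX2-5, a cardiac transcription factor named after its values were seen, was 1.19-fold higher. On the epithelial side, the ectodermal transcription factors DLX3 (−2.10) and TFAP2C (−2.07) and the keratin KRT14 (−1.86) had log2 differences near those of CDH3 and CDH1. This nearness depends on the added 1 FPKM. Plain FPKM ratios, PBS over donor, were 6.92 for DLX3, 7.05 for TFAP2C and 5.10 for KRT14. Those of CDH3 and CDH1 were 4.39 and 4.88. EPCAM, an adhesion molecule of epithelia, was 1.90-fold lower. GRHL2, the remaining marker of this list and named after its values were seen, was 1.37-fold lower. The ratio of CDH3 to EPCAM was 1.08 (1.05 to 1.12) in the PBS library and 0.471 (0.451 to 0.492) in the donor library. That of CDH1 to EPCAM was 0.116 (0.110 to 0.124) and 0.0456 (0.0416 to 0.0500), PBS first, so both cadherins were lower relative to EPCAM.

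Type II cadherins showed differences in both directions, and none of the 4 past the filter reached 2-fold. CDH5, VE-cadherin, forms the junctions of endothelium and endocardium (ENSGALG00000005272, chromosome 11, 10982217 to 11011468). It was at 23.6 FPKM (22.8 to 24.3) in the PBS library and 45.5 FPKM (44.6 to 46.4) in the donor library, where it ranked second among the cadherins. The log2 difference was 0.92 (0.87 to 0.97), and it was 1.11 after trimmed mean scaling, 1.09 after upper quartile scaling and 1.03 when centred on the median gene.

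Other endothelial genes were not raised evenly. The 5 endothelial markers in the tables summed to 43.5 FPKM in the PBS library and 69.2 FPKM in the donor library, and none was listed at 0. Of these, 1 was at least 2-fold higher, against 3.65% of all genes. PECAM1, an endothelial adhesion molecule, was 2.61-fold higher, the VEGF receptor KDR 1.70-fold, the receptor TEK 1.28-fold and the transcription factor ERG 1.08-fold. The receptor TIE1, named after its values were seen, was at 10.1 and 9.85 FPKM. The ratio of CDH5 to KDR was 2.00 (1.91 to 2.10) and 2.20 (2.14 to 2.27), PBS first. Its ratio to PECAM1 was lower in the donor library, at 3.05 (2.81 to 3.32) and 2.09 (2.00 to 2.18). Its ratio to TIE1 was 2.33 (2.17 to 2.50) and 4.62 (4.39 to 4.87). The part of endothelial cell number in the CDH5 difference was not tested.

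CDH11, a cadherin of mesenchyme (ENSGALG00000005278, chromosome 11, 11582884 to 11662192), was at 37.4 FPKM (36.5 to 38.3) in the PBS library and 23.9 FPKM (23.3 to 24.5) in the donor library. The log2 difference was −0.62 (−0.67 to −0.57). CDH11 is the next annotated gene after CDH5 on chromosome 11, 571415 bases away, and the neighbours differed in opposite directions. This contrasts in values with the CDH3 and CDH1 pair on the same chromosome, whose log2 differences were −2.10 and −1.97.

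The neural crest cadherins were low in both libraries. CDH6, known in chicken as cadherin-6B and made by neural crest cells before they migrate, was at 1.83 FPKM (1.55 to 2.11) in the PBS library and 1.93 FPKM (1.70 to 2.17) in the donor library. Its intervals overlapped. CDH7, made in chicken by migrating crest cells, was at 2.01 FPKM (1.72 to 2.31) and 0.880 FPKM (0.719 to 1.04), a log2 difference of −0.68 (−0.87 to −0.49). The ratio of CDH6 to CDH7 was 0.908 (0.745 to 1.11) in the PBS library and 2.19 (1.79 to 2.69) in the donor library. In the same libraries 3 of 4 neural crest markers were at least 2-fold lower, against 10.3% of all genes. Their sums were 66.5 and 18.3 FPKM, PBS first, with none at 0. SOX10, a crest transcription factor, was 8.28-fold lower. At 14.2 and 0.836 FPKM, PBS first, it passed the filter through its PBS level. The part of neural crest tissue in the CDH7 value was not tested.

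The other 7 type II cadherins, all best known from brain and spinal cord, did not reach a mean of 1 FPKM. CDH20 was the highest of them in the PBS library, at 1.24 FPKM (1.02 to 1.46), and was at 0.152 FPKM (0.0909 to 0.212) in the donor library. The gene RNF152 lies within its locus and was at 4.11 and 8.78 FPKM, so reads there may be shared if strand was not kept. CDH18 had the opposite order, at 0.198 FPKM (0.145 to 0.251) in the PBS library and 0.758 FPKM (0.671 to 0.845) in the donor library. CDH8 was also higher in the donor library, at 0.711 FPKM (0.566 to 0.856) and 1.25 FPKM (1.08 to 1.41), PBS first.

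CDH12 was at 0.227 and 0.0606 FPKM, PBS first, and CDH9 at 0.154 and 0.0247 FPKM with 17 and 4 fragments behind the values and intervals that did not overlap. The intervals of CDH10 (0.446 and 0.363 FPKM) and CDH22 (0.864 and 0.966 FPKM) overlapped. Counted together, 13 cadherins and protocadherins were classed here as neural, which does not mean that they are confined to neural tissue. Of these, 10 had lower FPKM in the donor library, 9 with intervals that did not overlap. The 3 with higher FPKM were CDH8, CDH18 and CDH22, the first 2 with intervals that did not overlap. Of all genes past the filter, 58.7% had negative differences, and 70.9% had intervals that did not overlap, in either direction. The 13 include genes under the filter, so these shares cover a different range of levels. Past the filter were 5 of the 13, CDH4, PCDH7, PCDH10, PCDH17 and PCDH18, all with negative log2 differences, of −0.32 to −1.57. CDH4 and PCDH10 passed through their PBS level, being under 1 FPKM in the donor library. The 3 neural members with higher FPKM all fell under the filter, so the filter shapes this one-sided result. In the same libraries 4 of 5 neural tissue markers were at least 2-fold lower, against 10.3% of all genes. Their sums were 345 and 161 FPKM, PBS first. Most of the donor sum was 1 gene, NES, at 152 and 121 FPKM, which was 1.25-fold lower. None was listed at 0. EN2 was at 22.7 FPKM in the PBS library and 0.0844 FPKM (0 to 0.204) in the donor library. With 2 fragments behind the donor value, its presence there is not shown. The part of neural tissue in these values was not tested. CDH17, an atypical cadherin of gut epithelium, was at 0.419 FPKM (0.321 to 0.517) in the PBS library and 0.0906 FPKM (0.0534 to 0.128) in the donor library, also under the filter.

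CDH13, T-cadherin, has a lipid (GPI) anchor in place of the transmembrane and catenin-binding parts and is known from vessels and heart (ENSGALG00000005483, chromosome 11, 15430489 to 15845338). It was at 1.09 FPKM (0.887 to 1.30) in the PBS library and 4.25 FPKM (3.91 to 4.59) in the donor library, with 111 and 629 fragments. The log2 difference was 1.33 (1.16 to 1.50), and the plain FPKM ratio was 3.88. Its ratio to CDH5 was 0.0464 (0.0389 to 0.0554) in the PBS library and 0.0933 (0.0862 to 0.101) in the donor library. CDH13 was thus higher also relative to CDH5. Its log2 difference was the most positive of the members with a pseudocount of 1 FPKM, but with 5 FPKM it was 0.60, beside 0.82 for CDH5.

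**Figure D3:**
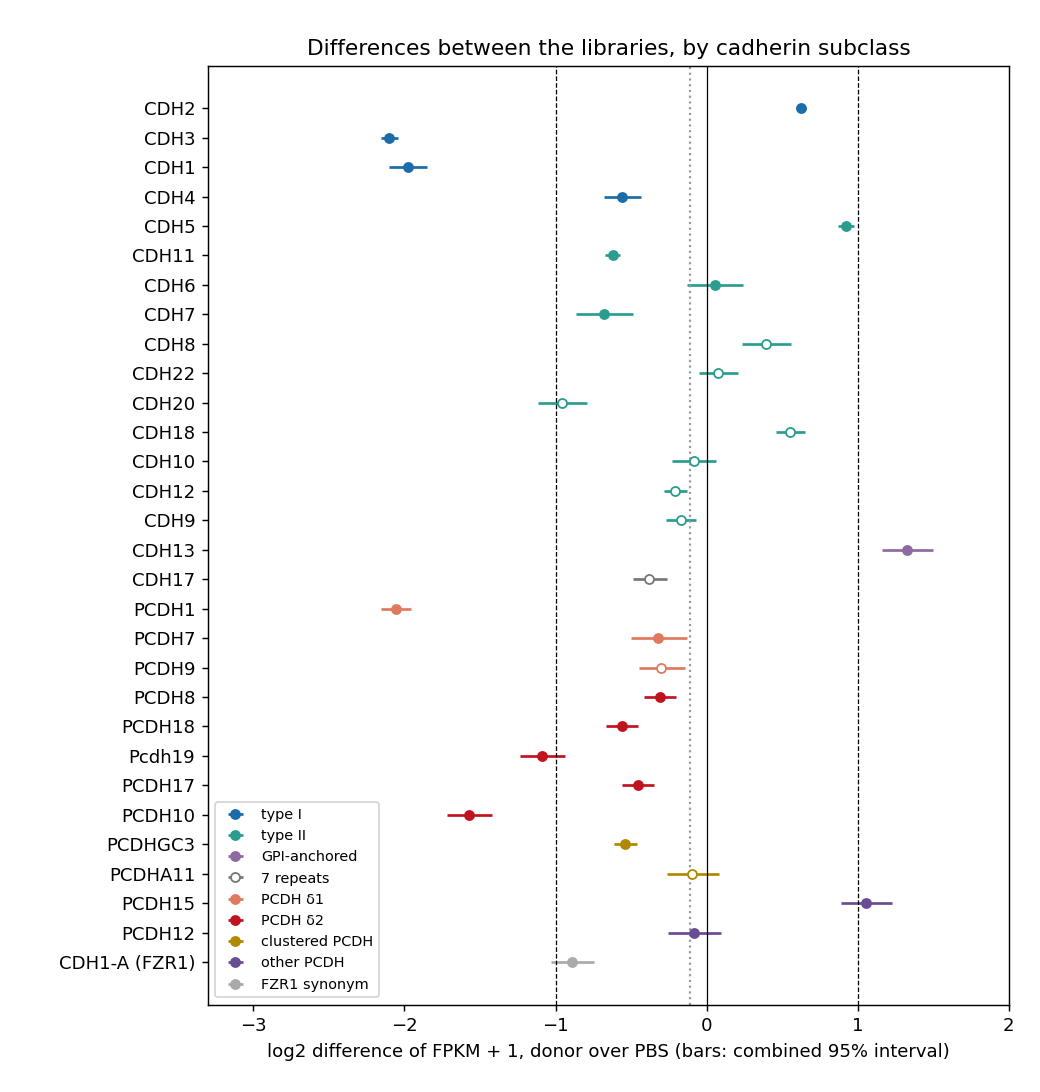
Log2 differences of FPKM + 1, donor over PBS, for the 29 members and Pcdh19, coloured by subclass, with combined 95% intervals. Open circles are genes under a mean of 1 FPKM, dashed lines mark 2-fold and the dotted line marks the median of all genes (−0.11). CDH3, PCDH1, CDH1 and PCDH10 lie left of the lower dashed line, and CDH13 and PCDH15 right of the upper one.

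The protocadherins of the δ classes, which have long cytoplasmic tails and act mostly in neural and early embryonic tissue, all had negative differences, under each scaling tried for those past the filter. In the δ1 class, PCDH1 (ENSGALG00000002553, chromosome 13, 1408177 to 1457586), which is found in epithelia, was at 10.2 FPKM (9.72 to 10.6) in the PBS library. It was at 1.69 FPKM (1.55 to 1.83) in the donor library, a log2 difference of −2.06 (−2.15 to −1.96). On this FPKM + 1 scale its interval overlaps those of CDH3 and CDH1. The plain FPKM of PCDH1 in the PBS library was 6.03 times that in the donor library. For CDH3 and CDH1 this ratio was 4.39 and 4.88. PCDH7, of the same class, was at 1.80 FPKM (1.52 to 2.09) and 1.25 FPKM (1.07 to 1.42), with a log2 difference of −0.32 (−0.50 to −0.13). PCDH9 was under 1 FPKM in both, at 0.441 and 0.172 FPKM.

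In the δ2 class, PCDH10, a protocadherin of the developing brain (ENSGALG00000009719, chromosome 4, 26355293 to 26387417), was at 3.10 FPKM (2.77 to 3.43) in the PBS library and 0.379 FPKM (0.288 to 0.469) in the donor library. The log2 difference was −1.57 (−1.72 to −1.42), and the plain FPKM of the PBS library was 8.19 times that of the donor library. With a pseudocount of 5 FPKM the log2 difference was −0.59. Its neighbour PCDH18, with 0 annotated genes between them, was at 7.32 FPKM (6.88 to 7.76) and 4.64 FPKM (4.35 to 4.92).

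PCDH8, related to the paraxial protocadherin that Xenopus uses in the early mesoderm, was at 9.49 FPKM (8.90 to 10.1) and 7.46 FPKM (7.06 to 7.86), PBS first. PCDH17 was at 2.35 FPKM (2.17 to 2.54) and 1.45 FPKM (1.33 to 1.57). The log2 differences of PCDH8, PCDH17 and PCDH18 were −0.31, −0.45 and −0.56, well short of that of PCDH10. Pcdh19, a δ2 gene outside the rule by its spelling, was at 6.83 FPKM (6.26 to 7.40) and 2.68 FPKM (2.42 to 2.95), a log2 difference of −1.09 (−1.24 to −0.94). With Pcdh19 counted and CDH1-A left out, 5 of 19 genes past the filter were at least 2-fold lower, against 10.3% of all genes.

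PCDH15 went the other way. It is best known from the tip links of sensory hair cells (ENSGALG00000002744, chromosome 6, 5764830 to 6063170). It was at 1.79 FPKM (1.53 to 2.05) in the PBS library and 4.79 FPKM (4.40 to 5.19) in the donor library, with 190 and 593 fragments. The log2 difference was 1.06 (0.89 to 1.23), so the interval reaches below 2-fold. With a pseudocount of 5 FPKM the value was 0.53. In the donor library it was the seventh most abundant cadherin, with an interval that overlapped those of PCDH18 and CDH13. PCDH12, an endothelial protocadherin, was at 2.26 FPKM (1.94 to 2.58) and 2.08 FPKM (1.85 to 2.30), and its intervals overlapped. Its log2 difference was −0.08, and 0.05 after trimmed mean scaling. Its ratio to CDH5 was 0.0959 (0.0837 to 0.110) in the PBS library and 0.0456 (0.0411 to 0.0507) in the donor library.

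The clustered protocadherins are strings of genes that share their last exons and give neurons a surface identity. Because of the shared exons, the split of reads among them is uncertain. PCDHGC3, of the γ cluster (ENSGALG00000028565, chromosome 13, 1217194 to 1247116), was the fourth most abundant cadherin of the PBS library at 25.8 FPKM (24.8 to 26.9). It was at 17.5 FPKM (16.8 to 18.1) in the donor library, a log2 difference of −0.54 (−0.61 to −0.46). PCDHA11, of the α cluster, was at 0.180 FPKM (0.0599 to 0.300) and 0.102 FPKM (0.0342 to 0.171), with 9 fragments in each library. CDH1-A, the FZR1 synonym, was at 26.6 FPKM (24.7 to 28.6) and 13.9 FPKM (12.9 to 15.0), a log2 difference of −0.89 (−1.03 to −0.75).

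Catenins and genes that work with them, taken as 1 list, were within 2-fold between the libraries, with 1 exception. Of 12 genes of this list past the filter, 1 was higher and 0 lower by the 2-fold threshold, and the median was 0.10. Of all genes, 3.65% were higher and 10.3% lower, with a median of −0.11. CTNNB1, β-catenin, was at 298 FPKM (295 to 301) in the PBS library and 356 FPKM (353 to 359) in the donor library. CTNNA1, α-catenin, was at 112 and 95.4 FPKM. CTNND1, p120-catenin, was 1.50-fold lower and JUP, plakoglobin, 1.66-fold lower, whereas ARVCF, a p120 relative, was 1.59-fold higher. CTNNA3, the αT-catenin of heart muscle junctions, was at 3.36 FPKM (3.04 to 3.69) and 32.9 FPKM (31.4 to 34.4), which is 7.78-fold higher. Its difference was thus in the range of the contractile markers, while the ratio of CDH2 to CTNNB1 was 0.305 (0.299 to 0.312) and 0.395 (0.389 to 0.401).

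Desmosomes, the junctions built on desmosomal cadherins, gave mixed values, with 2 of the 7 measured genes above zero and 5 below. Of the desmosomal cadherins listed, only DSG2 was measured. Of 7 genes past the filter, 3 were lower and 0 higher by the 2-fold threshold, against 10.3% and 3.65% of all genes, and the median was −0.29. The plakophilins PKP3 and PKP1 were 2.39-fold and 2.29-fold lower, and periplakin (PPL), a linker of epithelial desmosomes, was 2.06-fold lower. PKP3 (3.14 and 0.734 FPKM, PBS first) and PKP1 (3.48 and 0.958 FPKM) passed the filter through their PBS level, which favours lower calls. PKP2, the plakophilin of heart muscle, was 1.67-fold higher. DSG2, a desmosomal cadherin of heart and epithelia, was at 33.1 and 28.6 FPKM; it is named here after its values were seen.

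Of the more distant cadherin superfamily, 9 of the 16 genes in the tables passed the filter, 3 were lower (10.3% of all genes) and 0 higher (3.65% of all genes) by that threshold, and the median was −0.70. CELSR2, CELSR1 and CELSR3, which set planar polarity in epithelia and neurons, were 3.96-fold, 2.29-fold and 1.63-fold lower. CELSR2, at 5.38 and 0.610 FPKM, PBS first, passed the filter through its PBS level. DCHS1, a ligand of FAT cadherins, was 2.34-fold lower. Of the 9, 8 lay below zero and 1 above, FAT1, at 9.75 and 14.9 FPKM, which is named after its values were seen. Among 16 measured sheddases and regulators of cadherins, 3 were lower and 0 higher by it, beside the same shares of all genes, and the median was −0.40. TWIST1, a mesenchymal factor that represses CDH1, was 3.24-fold lower, OVOL2, an epithelial factor, 2.20-fold lower, TCF3, another repressor of CDH1, 2.02-fold lower and SNAI2, a crest factor that represses cadherins, 1.68-fold lower. OVOL2, at 2.56 and 0.621 FPKM with 52 and 22 fragments, PBS first, passed the filter through its PBS level. ZEB1, a further repressor of CDH1, named after its values were seen, was 1.40-fold higher.

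**Figure D4:**
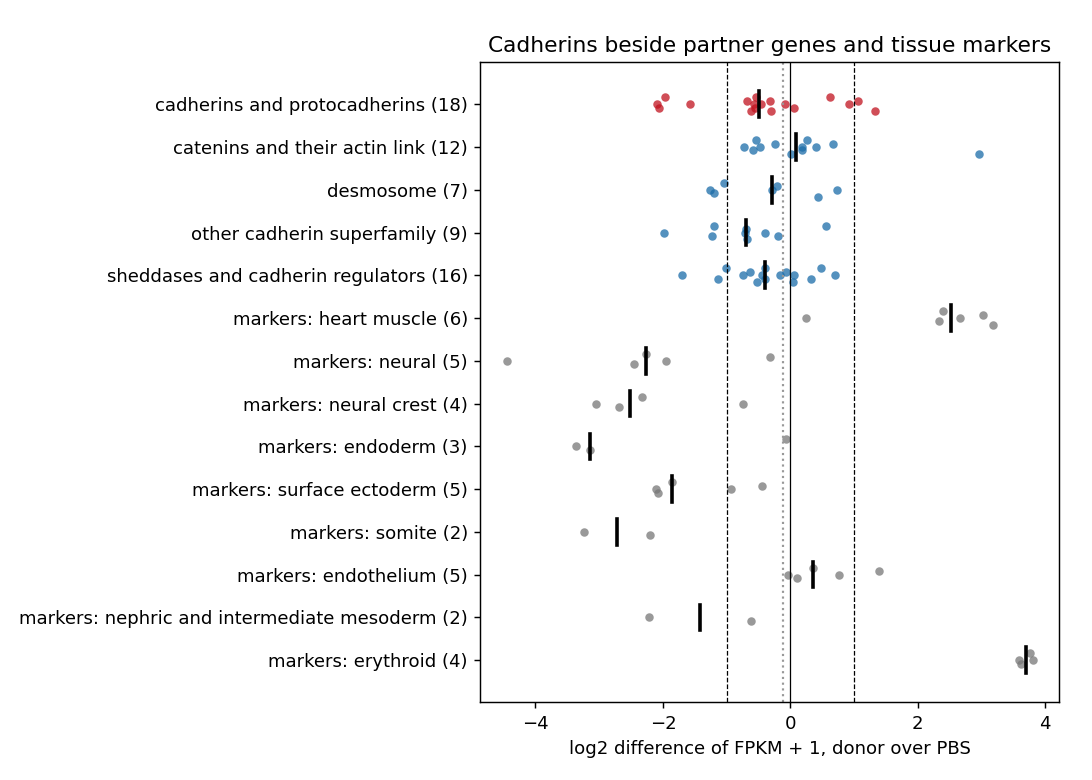
Log2 differences of FPKM + 1, donor over PBS, for genes past the filter in each list; each dot is a gene, black bars are medians, dashed lines mark 2-fold and the dotted line marks the median of all genes. The 18 cadherins, CDH1-A left out, have a median of −0.50, and the heart muscle markers 2.53. The list medians run from −3.15 (endoderm markers, 3 genes) to 3.69 (erythroid markers, 4 genes).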

How the data were processed

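RNA was sequenced on an Illumina HiSeq 2500 from 1 pool of 10 hearts per group. STAR 2.4.2a placed the reads on galGal4 with the annotation of Ensembl release 81, and Cufflinks 2.2.1 gave the expression values, per the labels and the series text. The deposited values are the authors' FPKM with 95% intervals for 17108 rows per library. They summed to 487268 FPKM in the PBS library and 536333 FPKM in the donor library. RNA selection and strandedness are not given in the sources used here.

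Rows of a symbol were summed (16737 genes), and those whose mean reached 1 FPKM were kept (10824). Log2 ratios of FPKM + 1 were taken, with the deposited intervals of both libraries combined in quadrature. The fragments behind a value are effective numbers, the squared ratio of FPKM to its SD, a Cufflinks interval being 2 SD wide on each side. Summed over rows they came to at least 18262183 and 28802333 fragments, PBS first. Starts in the tables count from 0, since 9 of 11 mitochondrial coding genes then had a length divisible by 3; printed starts count from 1. Of the members, 27 of 29 symbols are RefSeq symbols. Another 17 cadherin symbols of RefSeq, CDH19 among them, matched no symbol in the tables and are not analysed here. A gene spelled cad19, just before CDH7 on chromosome 2, was at 0 FPKM in the PBS library and 0.0131 FPKM in the donor library. Its spelling is outside the rule, and whether it is CDH19 was not checked. The rule for named genes took all members, up to 4 genes of each other list with the largest differences, and CTNNB1, CTNNA1, CTNND1 and JUP. NKX2-5, TIE1, DSG2, FAT1, ZEB1, GRHL2, NES, LHX1 and genes within or beside a member's locus are named outside it, after their values were seen. Of the neural, neural crest, endoderm, somite, nephric and erythroid markers that it selects, only SOX10, TTR, HHEX and EN2 are named. Members, lists and classes were chosen with earlier results of these data known. The alternatives varied the pseudocount, the filter and the scaling between libraries. The calculation was tested on simulated data. Python 3.11.15, pandas 2.3.3 and numpy 2.4.6 were used.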

Additional observations from a re-analysis of the deposited data

How the results depend on the processing

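The count of members at least 2-fold lower was 3 to 5 under 11 alternatives, against 4 as reported, while the share of all genes called lower ran from 4.47% (pseudocount of 5 FPKM) to 13.7% (pseudocount of 0.1 FPKM). The count at least 2-fold higher was 2 or 3, except 0 with a pseudocount of 5 FPKM and 0 with a minimum mean of 5 FPKM, which leaves 10 members and removes CDH13 and PCDH15; the share of all genes called higher ran from 1.86% to 5.28%. The median log2 difference of members was −0.54 as reported. It was −0.22 with a pseudocount of 5 FPKM, −0.31 without a filter, −0.36 after trimmed mean scaling and −0.38 after upper quartile scaling. Only the pseudocount and the scaling can move the value of a single member. The filters, keeping rows apart and the exchange of Pcdh19 for CDH1-A cannot. Keeping rows apart and a minimum of 50 fragments could not change the member counts either. Each member had 1 row, and those past the filter had at least 70 fragments. Of 19 members, 14 stayed on their side of the 2-fold threshold under every alternative that kept them. The others were CDH5, CDH13, PCDH10 and PCDH15, described above, and CDH7, at −1.11 with a pseudocount of 0.1 FPKM. The sign changed for 1 member, PCDH12, whose log2 difference of −0.08 lay close to zero. Each alternative recalculated the same FPKM, so these shifts come from the settings. The alternative with Pcdh19 in and CDH1-A out was chosen after seeing the data. No paired analysis was possible because each group has 1 library. With 9 fragments in each library, the difference of PCDHA11 was not determined at this depth, and that of CDH9 rests on 17 and 4 fragments.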

Other observations

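PCDH15 and CTNNA3, both at least 2-fold higher in the donor library, lie 66100 bases apart on chromosome 6. Between them are 2 annotated genes. DNAJC12, a chaperone of the DNAJ family, stood at 9.08 FPKM in the PBS library and 32.03 FPKM in the donor library, 3.28-fold higher on the FPKM + 1 scale, and the deacetylase SIRT1 was at 9.85 and 8.03 FPKM. These neighbours were looked up after the values of PCDH15 and CTNNA3 were seen.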
